A study of Arabidopsis thaliana with 9 samples.

Results

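Leaf RNA of wild type *Arabidopsis* (Columbia) was sequenced in 9 libraries, 3 for each of 3 light treatments, and the third replicate of every treatment, 3 of the 9 samples, was compared here with the other 6. The rosettes were 4 weeks old and each library pooled the leaves of 3 plants. In artificial low R:FR the plants had 3 weeks of light with a high red to far-red ratio (R:FR) and then 1 week at a ratio of 0.3 set by far-red LEDs. In biological low R:FR they had the same schedule, with the ratio lowered to 0.3 by far-red light reflected from neighbouring grass, and weed-free plants stayed at a high ratio, labelled 1.4, for 4 weeks. Replicate 3 was identified by the number in the sample labels. The study describes independent experiments in randomized complete blocks with replication as a random effect, and it states that these 9 RNA samples come from 3 independent experiments. Whether a replicate number marks one such experiment or block, and the time of day of any harvest, are not given in the sources used here. If it does, the 3 libraries of replicate 3 share 1 experiment, and the p-values do not measure the spread between experiments.

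Many leaf transcripts cycle over the day. In the circadian clock of *Arabidopsis*, MYB transcription factors that peak around dawn (CCA1 and LHY) repress genes that peak later, pseudo-response regulators (PRR9, PRR7, PRR5 and TOC1) follow each other through the day and repress *CCA1* and *LHY* in turn, and an evening complex of LUX, ELF3 and ELF4 represses daytime genes at dusk. REVEILLE proteins, such as RVE8 and RVE4, act with LNK coactivators to raise the genes of the afternoon and evening.

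Replicate 3 differed from replicates 1 and 2 in several groups of genes across the 3 treatments. Its libraries had less RNA of the morning clock genes *CCA1*, *PRR9* and *LNK2* to *LNK4*, of the light-signalling B-box genes *BBX25* and *BBX30* and of the flavonoid enzyme gene *CHS*, and more RNA of the evening clock genes *TOC1*, *LUX* and *ELF4*, of the clock outputs *COL9* and *COR27*, and of the immunity genes *PR1*, *PR2* and *PR5*. TPM (a transcript level scaled to gene length and to the library's total) was compared as log2(TPM + 1) in a single fit with treatment as a term, over the 17784 of 37363 genes with at least 1 TPM in at least 3 libraries. At an adjusted p under 0.05, 721 genes were higher in replicate 3 (4.05% of those tested) and 274 were lower (1.54%). Their median differences were 0.51 and -0.60 on the log2 scale, and 65 of the higher and 41 of the lower genes differed by over 1. In 719 of the 721 genes replicate 3 lay above both other replicates in every treatment, and in 271 of the 274 it lay below. These genes were called from the same values, so this largely follows from the selection. Among all genes tested, 3686 lay above (20.7%) and 713 below (4.01%) in that way.

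Replicates 1 and 2 were much closer to each other. No gene passed the same threshold between replicate 2 and replicate 1 by limma (0.0% of genes tested), with 168 at an unadjusted p under 0.05 against 4507 for replicate 3, and the smallest adjusted p was 0.0575. These tests are not alike. That of replicate 2 set 3 libraries against 3, not 3 against 6, and its variance included the unequal replicate 3 shifts of the treatments. The counts are therefore not like for like, and the lack of calls does not show that replicates 1 and 2 were equal. The size of the difference had a median of 0.160 over all genes for replicate 3 against the others and 0.0749 for replicate 2 against replicate 1. Recovered reads per gene varied 7.07 to 9.998 times as much as sampling noise (chi-square over its degrees of freedom) in pairs of libraries with replicate 3, and 2.015 to 4.704 times in pairs of replicates 1 and 2. This ratio also grows with depth, which was not matched between pairs.

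The median of all genes tested was itself 0.12 higher in replicate 3 (0.05, 0.07 and 0.24 in artificial low R:FR, biological low R:FR and weed-free), so a difference near that value marks a gene that moved with the bulk. With TPM rescaled by median-of-ratios size factors the median came to 0.00, and 254 genes were higher and 484 lower. The higher share of the calls was then 34.4%, against 72.5% with TPM as deposited. Genes named only as members of a gene family, such as *BBX13* or *WRKY51*, were not followed through the alternative settings. Of the other 78 named genes past the threshold, 67 kept their call under that scaling and the other 11 kept their direction only. Other alternatives ended more of these calls, without turning a direction. With the replicate number as a block of 3 levels (replicate 3 against the mean of the other levels) 42 of the 78 kept their call. The 36 that lost it under the block were *ELF4*, *ELF3*, *PRR3*, *RVE4*, *CDF1*, *CDF3*, *BBX8*, *BBX18*, *PR1*, *PR2*, *WRKY70*, *CBP60G*, *ALD1*, *PBS3*, *WRKY40*, *CML37*, *PIF3*, *PIF5*, *PIF7*, *IAA3*, *IAA17*, *AMY3*, *GBSS1*, *SS4*, *PGM1*, *LHCB1.1*, *LHCB2.1*, *RD26*, *PAL2*, *C4H*, *CHI*, *APR2*, *NIA2*, *ORE1*, *FBA1* and AT5G10760. Leaving out 1 library ended from 2 of the 78 calls (without biological low R:FR replicate 1) to 41 (without weed-free replicate 3 or artificial low R:FR replicate 1), and leaving out all weed-free libraries ended 57. The count of higher genes was 170, 212 and 736 when artificial low R:FR replicate 1, 2 or 3 was left out, 1639, 268 and 467 when biological low R:FR replicate 1, 2 or 3 was, and 178, 160 and 138 when weed-free replicate 1, 2 or 3 was. The lower genes numbered 101, 116 and 231, then 329, 173 and 162, then 107, 109 and 137 in the same order. Replicate 3 was the deepest library of 2 treatments, with 6649 Mb of aligned bases against 4459 and 3706 Mb in replicates 1 and 2 of weed-free, and 7014 Mb against 4663 and 4377 Mb in those of biological low R:FR. For artificial low R:FR it had 10856 Mb, against 11894 and 5444 Mb in replicates 1 and 2. The part of depth in the results was not tested. Of the 995 genes past the threshold 187 (18.8%) shared 50 bp or more of exon with an opposite-strand gene, against 20.7% of all genes tested. Whether strand was used in counting is not given in the sources used here, so reads of such pairs cannot be told apart; among the genes named this holds for *LUX*, *BOA*, *LNK2*, *IAGLU*, AT2G47880, *BBX14*, *SARD1*, *WRKY53*, *WRKY40*, *TCH3*, *GUN4*, *PIF7*, *IAA3*, *BAM3*, *CAT2*, *BBX8*, *APR2*, *COR15B*, *LNK1*, *LKP2*, *ELF4-L1*, *TCH2*, AT4G01280, AT1G06650 and AT5G61660.

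**Figure D1:**
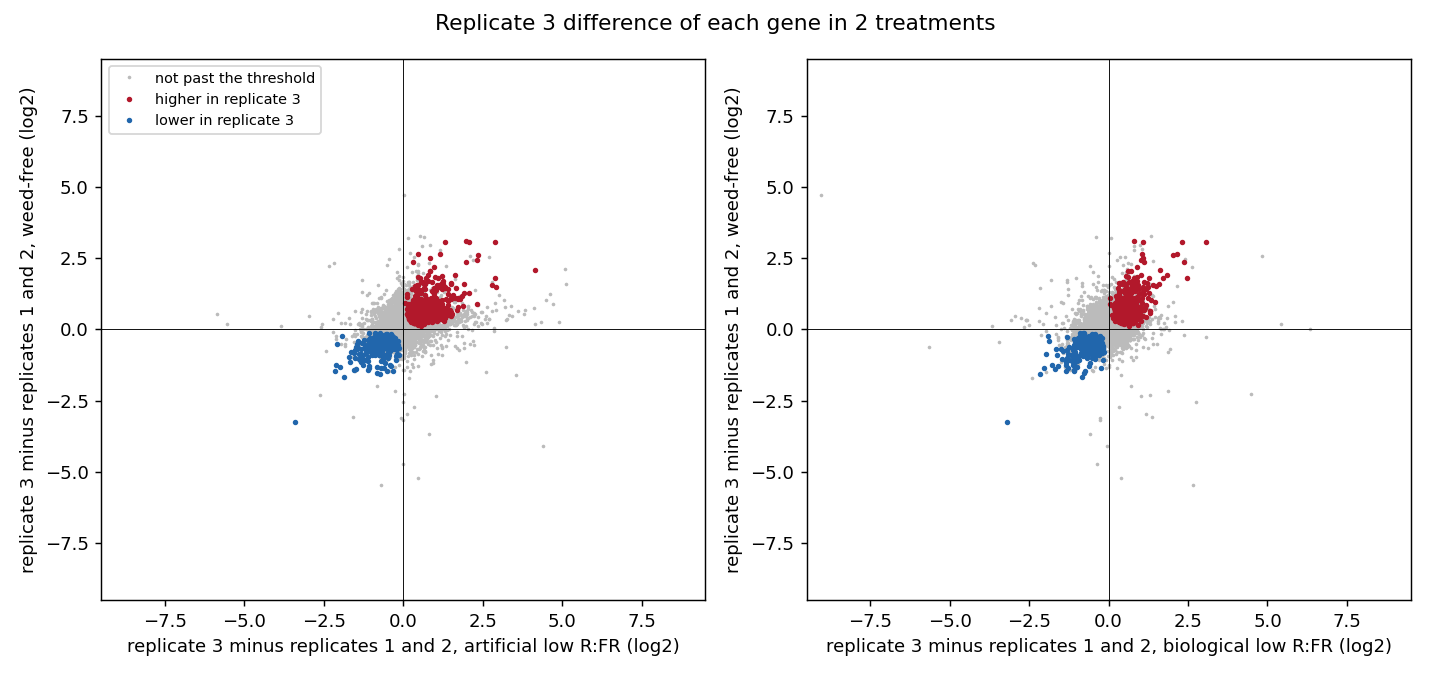
Difference of replicate 3 from the mean of replicates 1 and 2 for each of the 17784 genes tested, in log2(TPM + 1). The vertical axis gives the difference in weed-free and the horizontal axis that in artificial (left) or biological (right) low R:FR; red points are the 721 genes past the threshold and higher in replicate 3, blue points the 274 lower. The red points fill the upper right and the blue points the lower left of both panels, which largely follows from their selection by the common shift.

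The 14 morning clock genes tested, of 16 on the list, had a median difference of -0.68, against 0.12 over all genes. Of these, 6 were lower in replicate 3 and none was higher (list counts here and below stand beside the 4.05% and 1.54% of all genes). *CCA1* had 8.21, 1.47 and 1.27 TPM in replicate 3 of artificial low R:FR, biological low R:FR and weed-free, against 36.97 and 40.9, 5.24 and 3.61, and 4.12 and 4.55 TPM in replicates 1 and 2 of the same treatments. Every replicate 3 library was below both others of its treatment, and the difference was -1.49 ± 0.18 (SE, adjusted p = 0.00347). *PRR9*, the first pseudo-response regulator of the day, had 15.9, 1.67 and 2.52 TPM in replicate 3 of artificial low R:FR, biological low R:FR and weed-free, against 25.7 and 28.9, 12.9 and 9.45, and 10.08 and 8.89 TPM in replicates 1 and 2 of the same treatments. Its difference was -1.50 ± 0.22 (SE, adjusted p = 0.0114) and was smallest in artificial low R:FR (differences of -0.75, -2.17 and -1.57 in artificial, biological and weed-free). AT2G46670, which the annotation describes only as a CCT motif protein and which moved alike (-1.36 ± 0.20, adjusted p = 0.00827), is close in sequence to *PRR9*, so reads may have been split between them.

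Of the 4 *LNK* coactivator genes 3 fell as well. *LNK3* had 21.5, 5.51 and 7.42 TPM in replicate 3 of artificial low R:FR, biological low R:FR and weed-free, against 64.1 and 73.9, 12.4 and 12.6, and 13.9 and 13.04 TPM in replicates 1 and 2 of the same treatments, a difference of -1.15 ± 0.14 (SE, adjusted p = 0.00347). *LNK4* had 20.7, 9.92 and 6.03 TPM in replicate 3 of artificial low R:FR, biological low R:FR and weed-free, against 50.3 and 57.6, 25.3 and 18.1, and 12.4 and 12.1 TPM in replicates 1 and 2 of the same treatments, a difference of -1.10 ± 0.12 (SE, adjusted p = 0.00222). The replicate 3 values of both genes lay outside those of replicates 1 and 2 in each treatment. *LNK2* differed by -1.03 ± 0.18 (SE, adjusted p = 0.0176), and *RVE4* by -0.47 ± 0.11 (SE, adjusted p = 0.0387). *LHY* and *RVE8* were below both other replicates in every treatment too, but their differences of -0.90 ± 0.32 (adjusted p = 0.129) and -1.03 ± 0.28 (adjusted p = 0.0684) did not pass the test, and they were unequal between treatments (interaction, adjusted p = 0.0301 and 0.0334). Within artificial low R:FR *LHY* had 1.13 TPM in replicate 3, against 7.58 and 8.86 TPM in replicates 1 and 2. Within weed-free it had 0.444 TPM in replicate 3, against 0.665 and 0.704 TPM in replicates 1 and 2, close to the 1 TPM minimum. *LNK1* (-0.29), *RVE7* (-0.37), AT4G01280 (-0.16), *PRR7* (-0.02) and AT5G52660 (0.12) did not pass.

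*RVE2*, a further MYB-like gene of the list, went the other way. It had 1.04, 9.92 and 6.19 TPM in replicate 3 of artificial low R:FR, biological low R:FR and weed-free, against 0.827 and 0.903, 0.667 and 0.922, and 0.639 and 0.509 TPM in replicates 1 and 2 of the same treatments. The higher values were in biological low R:FR and weed-free, not in artificial low R:FR. Its overall difference was 1.64 ± 0.41 (adjusted p = 0.0627), and the differences between treatments passed the interaction test (adjusted p = 0.0061). Without artificial low R:FR replicate 3 it was the 1 morning gene called higher.

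All 16 day and evening clock genes were tested and had a median difference of 0.95, with 6 higher in replicate 3 and none lower. *TOC1*, the last of the pseudo-response regulators, had 16.3, 81.4 and 71.6 TPM in replicate 3 of artificial low R:FR, biological low R:FR and weed-free, against 3.74 and 3.57, 53.4 and 38.1, and 22.2 and 24.2 TPM in replicates 1 and 2 of the same treatments. The difference was 1.44 ± 0.18 (SE, adjusted p = 0.00503), and no replicate 3 library overlapped the others of its treatment. *LUX*, the DNA-binding subunit of the evening complex, had 23.9, 130.1 and 82.7 TPM in replicate 3 of artificial low R:FR, biological low R:FR and weed-free, against 10.01 and 10.7, 49.6 and 48.5, and 27.3 and 27.4 TPM in replicates 1 and 2 of the same treatments. It moved almost equally in the 3 treatments (1.13, 1.39 and 1.56 in artificial, biological and weed-free), with an overall difference of 1.36 ± 0.09 (SE, adjusted p = 0.000145). *ELF4*, another subunit, had 80.2, 439 and 449 TPM in replicate 3 of artificial low R:FR, biological low R:FR and weed-free, against 3.86 and 3.27, 141 and 143, and 108 and 104 TPM in replicates 1 and 2 of the same treatments. It had the largest rise of the named genes, 2.62 ± 0.44 (SE, adjusted p = 0.0307), and the rise was steepest in artificial low R:FR (differences of 4.16, 1.62 and 2.08, interaction, adjusted p = 0.000703). *ELF3*, the third subunit, rose by 0.99 ± 0.21 (SE, adjusted p = 0.0337), and *BOA*, a relative of *LUX*, by 1.12 ± 0.20 (SE, adjusted p = 0.0177).

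*PRR3*, a regulator that protects TOC1 from degradation, had 7.37, 32.4 and 34.98 TPM in replicate 3 of artificial low R:FR, biological low R:FR and weed-free, against 0.0739 and 0.142, 21.6 and 14.8, and 12.5 and 11.3 TPM in replicates 1 and 2 of the same treatments. In artificial low R:FR replicates 1 and 2 were near 0 while replicate 3 was not, and the difference was 1.74 ± 0.34 (SE, adjusted p = 0.0358). By treatment it was 2.92, 0.82 and 1.48 in artificial, biological and weed-free (interaction, adjusted p = 0.0301). *GI*, which acts with the F-box protein FKF1 in the afternoon, was also above both other replicates in every treatment, but at 0.91 ± 0.27 (adjusted p = 0.086) it did not pass. *FKF1* itself had 23.5, 96.8 and 90.8 TPM in replicate 3 of artificial low R:FR, biological low R:FR and weed-free, against 0.102 and 0.0575, 77.7 and 66.1, and 46.3 and 42.7 TPM in replicates 1 and 2 of the same treatments. Its difference of 1.98 ± 0.77 (adjusted p = 0.187) lay mostly in artificial low R:FR, with 4.50, 0.43 and 1.01 in the 3 treatments (interaction, adjusted p = 0.000119). The F-box genes *ZTL* (0.05), whose transcript is known to be steady over the day, and *LKP2* (0.07), the TCP gene *CHE* (0.24) and the *ELF4*-like genes *ELF4-L1* (0.81), *ELF4-L2* (0.12), *ELF4-L3* (0.22) and *ELF4-L4* (0.52) did not pass. The count of 6 became 3 without weed-free replicate 1 or 2, biological low R:FR replicate 2 or artificial low R:FR replicate 1 or 2, and 2 without weed-free replicate 3, while the count of 6 lower morning genes became 4 without weed-free or biological low R:FR replicate 3 and was 5 or 6 without any other library.

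**Figure D2:**
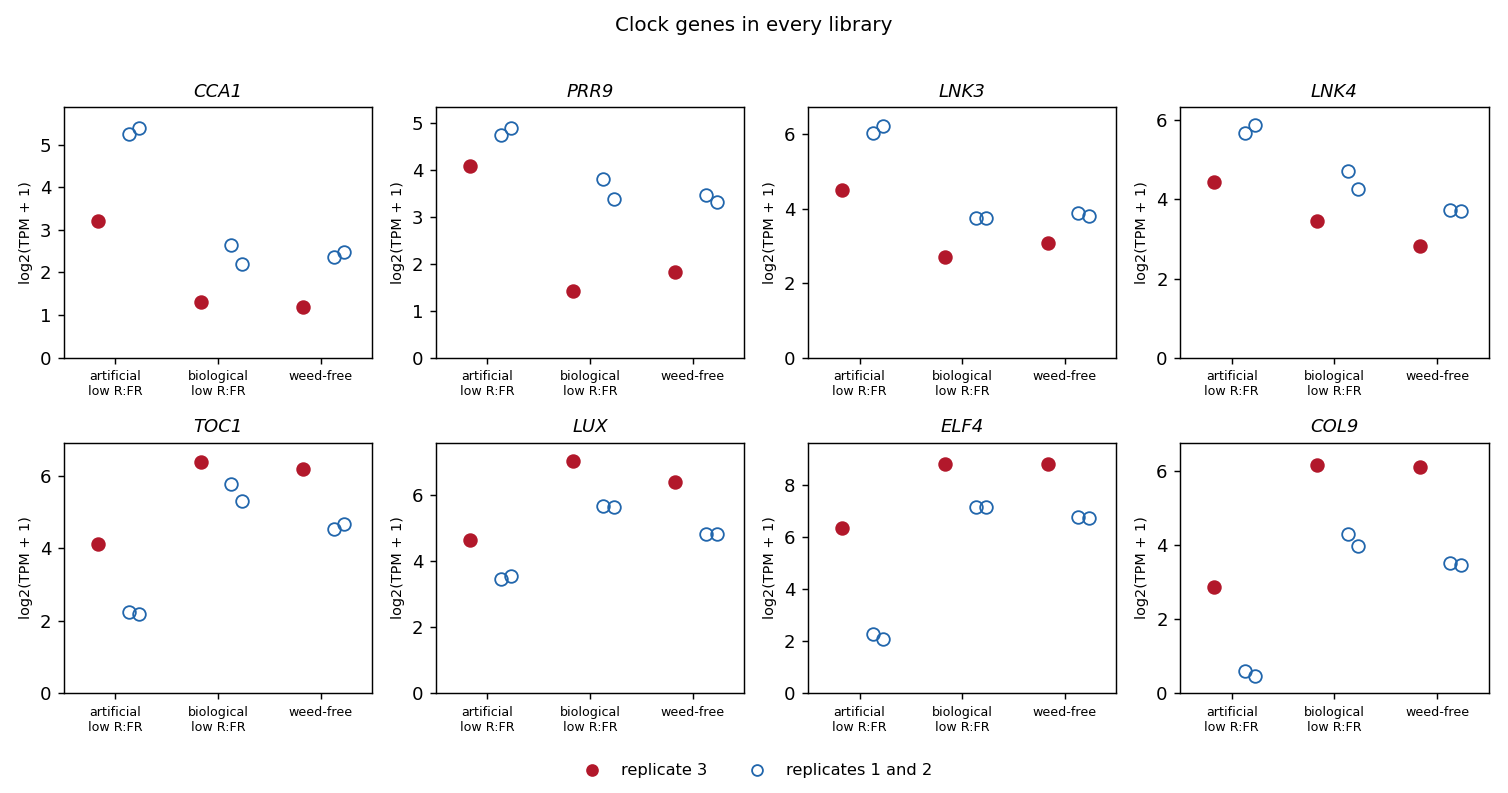
Level of 8 clock genes in every library as log2(TPM + 1), by treatment. Filled red points are replicate 3 and open blue points replicates 1 and 2; the red point lies below both blue points in every treatment for the 4 genes of the upper row and above both in every treatment for the 4 genes of the lower row.

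The 250 bases before the annotated start of 16622 tested genes (those that are nuclear and protein-coding) were searched on both strands for 4 motifs named in work on clock and light control: the evening element AAATATCT, the CCA1-binding site AAAAATCT, the G-box CACGTG and the morning element CCACAC. None of the 4 lies within another, though CCACAC and CACGTG can share letters. The stretches that hold matches in genes the results turn on are shown 5′ to 3′ in the gene's direction, from the RefSeq genome of TAIR10.1, with each match in capitals; AGATATTT and AGATTTTT are the evening element and the CCA1-binding site read on the other strand. *LUX*, *IAGLU*, *GER3*, *BBX30* and *CHS* are among those with the smallest adjusted p of the named genes with a match in a stretch free of other annotated genes, and *TOC1*, *ELF4*, *CCA1*, *LNK3* and *PRR9* were added after their values were seen because the clock results rest on them.
LUX, chr3:17182834-17183012, plus strand: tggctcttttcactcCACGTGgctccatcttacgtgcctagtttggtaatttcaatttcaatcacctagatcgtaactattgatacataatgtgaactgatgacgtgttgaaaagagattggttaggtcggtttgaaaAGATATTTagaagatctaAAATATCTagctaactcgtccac
GER3, chr5:6976161-6976198, minus strand: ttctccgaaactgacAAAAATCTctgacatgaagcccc
TOC1, chr5:24674797-24674834, plus strand: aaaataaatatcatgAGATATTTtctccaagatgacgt
ELF4, chr2:16734924-16734974, minus strand: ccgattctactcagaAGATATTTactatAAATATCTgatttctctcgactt
IAGLU, chr4:8879488-8879525, minus strand: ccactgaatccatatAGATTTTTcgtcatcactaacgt
BBX30, chr4:8708754-8708789, plus strand: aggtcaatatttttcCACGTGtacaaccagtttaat
CHS, chr5:4488228-4488414, plus strand: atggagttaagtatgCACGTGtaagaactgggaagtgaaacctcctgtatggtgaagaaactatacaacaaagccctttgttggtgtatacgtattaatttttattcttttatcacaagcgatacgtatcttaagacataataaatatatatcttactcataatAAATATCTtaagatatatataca
CCA1, chr2:19245383-19245418, plus strand: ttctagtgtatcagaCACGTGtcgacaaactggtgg
LNK3, chr3:3923329-3923394, plus strand: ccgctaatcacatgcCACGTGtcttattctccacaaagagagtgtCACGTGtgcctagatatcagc
PRR9, chr2:19232357-19232455, plus strand: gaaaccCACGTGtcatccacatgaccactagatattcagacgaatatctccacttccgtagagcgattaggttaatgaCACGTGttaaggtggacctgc

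The first 4 genes were higher in replicate 3 and the last 6 lower. *LUX*, *TOC1* and *ELF4* hold evening elements, while *BBX30*, *CHS*, *CCA1*, *LNK3* and *PRR9* hold G-boxes, which *LUX* has as well. *CHS* also holds an evening element. Matches not shown include those of *PR5*, which was higher and came next by adjusted p after *CHS*. It holds an evening element, a CCA1-binding site and a morning element. Of other higher genes, *PR2* holds a G-box, AT4G33980 a CCA1-binding site, *BBX8* evening elements, and *BOA* a G-box and an evening element. The lower genes *ERD9* and AT3G03341 each hold a G-box. Over all 16622 genes the evening element was present in 5.25% of promoters. It was present in 12.5% of the genes higher in replicate 3 (88 of 704) and in 2.67% of those lower (7 of 262), and among genes higher by over 1 log2 in 30.6% (19 of 62). The G-box was present in 4.97% of the higher genes (35 of 704), 16.8% of the lower genes (44 of 262) and 7.39% of all, and in 28.9% of the genes lower by over 1 log2 (11 of 38). The CCA1-binding site was at 6.82% of higher, 8.02% of lower and 6.92% of all genes, and the morning element at 4.69%, 11.1% and 6.29%. Among genes past the threshold by over 1 log2 the orders were not all the same: the morning element was in 8.06% of higher (5 of 62) and 2.63% of lower genes (1 of 38), the CCA1-binding site in 9.68% (6 of 62) and 5.26% (2 of 38), and the G-box also in 12.9% of the higher genes (8 of 62). These shares describe letters in a window, and no test was made of them.

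**Figure D3:**
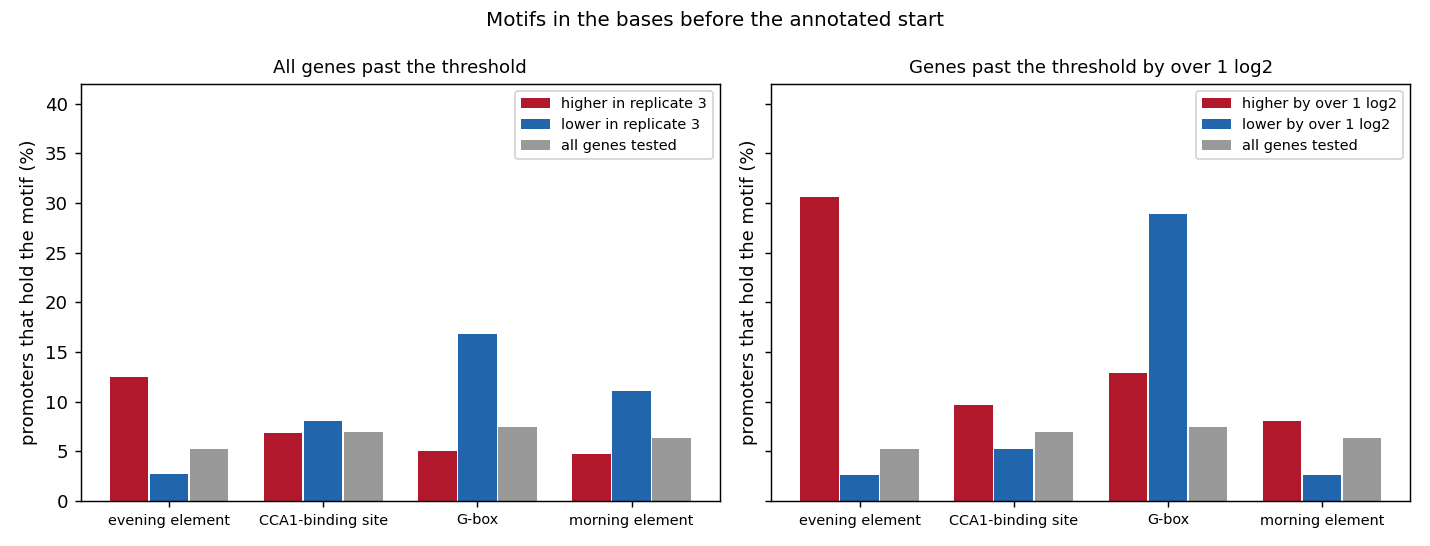
Share of promoters (250 bases before the annotated start, either strand) that hold each of 4 motifs, in percent. Red bars are genes higher in replicate 3, blue bars genes lower and grey bars all 16622 nuclear protein-coding genes tested; the left panel takes all genes past the threshold and the right panel those past it by over 1 log2, where the evening element reaches 30.6% of higher genes and the G-box 28.9% of lower genes.

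Among the 17 clock output genes tested, of 20 on the list, 3 were higher and 7 lower in replicate 3. *COL9*, a CONSTANS-like B-box gene, had the smallest adjusted p of the named genes. It had 6.29, 70.1 and 67.4 TPM in replicate 3 of artificial low R:FR, biological low R:FR and weed-free, against 0.509 and 0.383, 18.5 and 14.8, and 10.5 and 10.02 TPM in replicates 1 and 2 of the same treatments. The difference was 2.32 ± 0.12 (SE, adjusted p = 2.42e-05), with 2.34, 2.02 and 2.60 in artificial, biological and weed-free. *COR27*, a cold- and light-regulated gene whose protein represses clock genes, had 3.53, 153 and 99.8 TPM in replicate 3 of artificial low R:FR, biological low R:FR and weed-free, against 0.150 and 0, 32.3 and 28.1, and 12.4 and 9.86 TPM in replicates 1 and 2 of the same treatments. Its difference was 2.48 ± 0.17 (SE, adjusted p = 0.000145). AT4G33980, which the annotation leaves uncharacterized, differed by 1.93 ± 0.23 (SE, adjusted p = 0.00511), unequally at 2.32, 1.03 and 2.42 in artificial, biological and weed-free (interaction, adjusted p = 0.0364). These 3 rises were over 1 log2 in each treatment, although artificial low R:FR had the lowest levels.

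The 7 lower outputs were *BBX25*, *SIG5*, *CAT2*, *BBX19*, *CDF1*, *BBX18* and *CDF3*. *BBX25*, whose protein acts in light signalling, had 29.4, 6.10 and 6.87 TPM in replicate 3 of artificial low R:FR, biological low R:FR and weed-free, against 69.3 and 74.97, 17.41 and 16.8, and 17.57 and 17.63 TPM in replicates 1 and 2 of the same treatments. Its difference was -1.29 ± 0.07 (SE, adjusted p = 5.33e-05), almost equal in the 3 treatments (-1.27, -1.35 and -1.24). *SIG5*, which encodes a sigma factor of the chloroplast RNA polymerase, had 9.71, 3.47 and 3.66 TPM in replicate 3 of artificial low R:FR, biological low R:FR and weed-free, against 26.97 and 25.2, 9.28 and 11.3, and 9.78 and 8.95 TPM in replicates 1 and 2 of the same treatments. It differed by -1.27 ± 0.09 (SE, adjusted p = 0.000216). *CAT2*, a catalase of photorespiration whose transcript peaks in the morning, had 206, 40.9 and 78.03 TPM in replicate 3 of artificial low R:FR, biological low R:FR and weed-free, against 478 and 465, 89.4 and 94.8, and 187 and 145 TPM in replicates 1 and 2 of the same treatments. It differed by -1.14 ± 0.10 (SE, adjusted p = 0.000541), while *CAT3*, the catalase whose transcript peaks in the evening, had a difference of 0.60 ± 0.22 that did not pass (adjusted p = 0.131). *CDF1* (-0.56) and *CDF3* (-0.38) encode Dof factors, of which CDF1 represses *CONSTANS* in the morning. The 7 lower outputs were 3 to 5 without weed-free replicate 1, 2 or 3, biological low R:FR replicate 2 or 3, or artificial low R:FR replicate 1, 2 or 3.

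B-box proteins are zinc finger factors of light signalling, and the family was examined as a whole after *BBX25* and *COL9* were seen. Of its 30 members 24 were tested, with 4 higher and 7 lower in replicate 3. *BBX30*, which encodes a small B-box protein, had 18.22, 2.00 and 3.32 TPM in replicate 3 of artificial low R:FR, biological low R:FR and weed-free, against 42.5 and 37.8, 9.11 and 6.96, and 11.2 and 8.26 TPM in replicates 1 and 2 of the same treatments. It differed by -1.33 ± 0.13 (SE, adjusted p = 0.00107). *BBX16* (-1.17), *BBX28* (-0.75) and *BBX31* (-0.68) were lower too, beside *BBX25*, *BBX19* and *BBX18*. *BBX8* had 19.8, 85.3 and 86.9 TPM in replicate 3 of artificial low R:FR, biological low R:FR and weed-free, against 2.00 and 1.98, 49.6 and 39.8, and 28.9 and 29.5 TPM in replicates 1 and 2 of the same treatments. It differed by 1.76 ± 0.30 (SE, adjusted p = 0.0236), with unequal differences of 2.80, 0.92 and 1.54 in artificial, biological and weed-free (interaction, adjusted p = 0.00996). *BBX13* (1.14) and *BBX14* (0.65) were also higher, beside *COL9*.

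Of the 12 largest rises and 12 largest falls with a mean of at least 10 TPM, several belong to no clock list. *GER3*, a germin-like cell wall protein whose transcript is known to cycle, had 55.5, 141 and 106 TPM in replicate 3 of artificial low R:FR, biological low R:FR and weed-free, against 7.66 and 5.79, 28.03 and 21.4, and 24.1 and 37.02 TPM in replicates 1 and 2 of the same treatments. It differed by 2.38 ± 0.21 (SE, adjusted p = 0.001), with 2.88, 2.47 and 1.80 in the 3 treatments, and replicate 3 did not overlap the other replicates. AT2G47880, a glutaredoxin gene, rose by 1.56 ± 0.15 (SE, adjusted p = 0.000932), and AT5G10760, an aspartyl protease gene, by 1.61 ± 0.32 (SE, adjusted p = 0.0343). AT2G15020, an uncharacterized gene, had 16.4, 0.592 and 1.82 TPM in replicate 3 of artificial low R:FR, biological low R:FR and weed-free, against 44.5 and 50.5, 4.96 and 3.37, and 6.51 and 6.29 TPM in replicates 1 and 2 of the same treatments. It fell furthest of the named falls with that mean, with a difference of -1.52 ± 0.12 (SE, adjusted p = 0.000311). *IAGLU*, which encodes an enzyme that glucosylates the auxin indole-3-acetic acid, had 12.4, 3.88 and 4.69 TPM in replicate 3 of artificial low R:FR, biological low R:FR and weed-free, against 38.2 and 39.3, 9.06 and 9.85, and 14.2 and 14.6 TPM in replicates 1 and 2 of the same treatments. The difference was -1.37 ± 0.10 (SE, adjusted p = 0.000207). *ERD9*, a glutathione S-transferase gene, differed by -1.46 ± 0.18 (SE, adjusted p = 0.00499), AT3G03341, annotated as a cold-regulated protein, by -1.41 ± 0.18 (SE, adjusted p = 0.00511), and AT1G64500, a glutaredoxin gene, by -1.28 ± 0.12 (SE, adjusted p = 0.000761). *AOC1*, an allene oxide cyclase of jasmonate synthesis, differed by -1.28 ± 0.15 (SE, adjusted p = 0.00347). It was the 1 gene of the 15 tested on the jasmonate list that passed.

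Salicylic acid is the hormone that leads to resistance against biotrophic pathogens, and its accumulation raises the *PR* genes through the coactivator NPR1. Of 14 genes on the salicylic acid and immunity list 13 were tested and 10 were higher in replicate 3, none lower, with a median difference of 0.74. *PR1*, the usual marker of the response, had 119, 1.18 and 8.22 TPM in replicate 3 of artificial low R:FR, biological low R:FR and weed-free, against 23.7 and 37.1, 0.273 and 0.221, and 0 and 0.144 TPM in replicates 1 and 2 of the same treatments. It differed by 1.96 ± 0.37 (SE, adjusted p = 0.0323). All 3 replicate 3 libraries were above both others of their treatment, but the level in biological low R:FR stayed near 1 TPM. *PR2*, a β-1,3-glucanase gene, had 38.5, 4.31 and 17.9 TPM in replicate 3 of artificial low R:FR, biological low R:FR and weed-free, against 12.8 and 17, 1.75 and 1.29, and 1.15 and 1.31 TPM in replicates 1 and 2 of the same treatments. It differed by 1.83 ± 0.34 (SE, adjusted p = 0.0305), and for both genes the difference was largest in weed-free (1.97, 0.80 and 3.11 for *PR1* and 1.33, 1.08 and 3.08 for *PR2* in artificial, biological and weed-free, interaction, adjusted p = 0.0434 and 0.0242). *PR5*, which encodes a thaumatin-like protein, had 80.6, 10.3 and 22.7 TPM in replicate 3 of artificial low R:FR, biological low R:FR and weed-free, against 17.44 and 22.6, 4.64 and 3.87, and 3.31 and 3.86 TPM in replicates 1 and 2 of the same treatments. It differed by 1.82 ± 0.20 (SE, adjusted p = 0.00296).

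Several regulators of the same response were higher as well. *WRKY38*, a transcription factor gene, had 3.27, 3.33 and 3.63 TPM in replicate 3 of artificial low R:FR, biological low R:FR and weed-free, against 0.511 and 0.950, 1.43 and 0.755, and 0.572 and 0.777 TPM in replicates 1 and 2 of the same treatments. It differed by 1.29 ± 0.14 (SE, adjusted p = 0.00256). *NIMIN1*, which encodes an NPR1-interacting protein, had 26.1, 43.7 and 41.6 TPM in replicate 3 of artificial low R:FR, biological low R:FR and weed-free, against 6.35 and 9.49, 24.4 and 25.3, and 16.2 and 22.3 TPM in replicates 1 and 2 of the same treatments. It differed by 1.17 ± 0.17 (SE, adjusted p = 0.0083). *SARD1* (0.74 ± 0.10, adjusted p = 0.00639) and *CBP60G* (0.63 ± 0.14, adjusted p = 0.0344) encode the factors that raise *ICS1*, the gene of the enzyme that makes the salicylic acid precursor isochorismate. *ICS1* was above both other replicates in every treatment at 0.41 ± 0.11, but did not pass (adjusted p = 0.0655). *ALD1* (0.79), *PBS3* (0.54) and *WRKY70* (0.42) passed, and *EDS1* (0.31, adjusted p = 0.0726) and *PAD4* (0.14, adjusted p = 0.667) did not. *PAD4*, which acts with EDS1, went opposite ways in the treatments. It had 43.5, 31.7 and 42.8 TPM in replicate 3 of artificial low R:FR, biological low R:FR and weed-free, against 29.1 and 31.1, 52.6 and 43.2, and 30.3 and 31.2 TPM in replicates 1 and 2 of the same treatments, with differences of 0.52, -0.58 and 0.46 in artificial, biological and weed-free (interaction, adjusted p = 0.0462). The count of 10 was 4 without weed-free replicate 1 or 2 or artificial low R:FR replicate 1 or 2, 5 without weed-free replicate 3 or biological low R:FR replicate 2, and 7 to 10 without any other library. *PR5* kept its call in all of the 20 alternatives run.

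**Figure D4:**
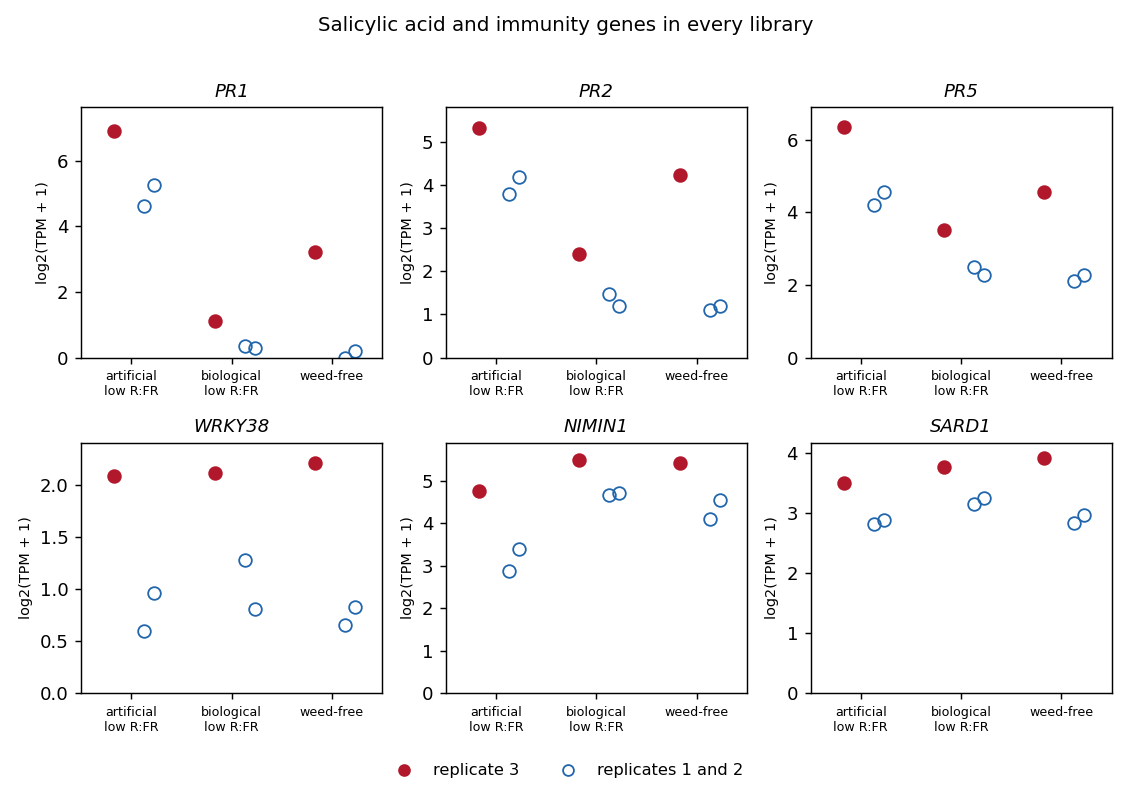
Level of 6 salicylic acid and immunity genes in every library as log2(TPM + 1), by treatment. Filled red points are replicate 3 and open blue points replicates 1 and 2; the red point is above both blue points in every treatment for all 6 genes.

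Genes that respond within minutes to touch, wounding or elicitors moved the same way in part. Of 18 tested members of the rapid stress list 7 were higher in replicate 3 and none lower, with a median difference of 0.48. *WRKY53*, a transcription factor of defence and senescence, had 10.12, 5.39 and 7.34 TPM in replicate 3 of artificial low R:FR, biological low R:FR and weed-free, against 4.53 and 5.47, 3.12 and 3.11, and 2.47 and 2.17 TPM in replicates 1 and 2 of the same treatments. It differed by 0.95 ± 0.13 (SE, adjusted p = 0.00639). The ethylene response factor genes *ERF6* (0.74 ± 0.14, adjusted p = 0.0236) and *ERF104* (0.69 ± 0.14, adjusted p = 0.0289), the calmodulin-like genes *TCH3* (0.71 ± 0.15, adjusted p = 0.0308) and *CML37* (0.67 ± 0.15, adjusted p = 0.0359), *CZF1* (0.56 ± 0.10, adjusted p = 0.0176) and *WRKY40* (0.54 ± 0.11, adjusted p = 0.0284) were the others. *ZAT10* (0.34), *ZAT12* (0.43), *TCH2* (0.08) and *ERF4* (-0.07) did not pass. The count was 1 without weed-free replicate 3 or artificial low R:FR replicate 1, 2 without biological low R:FR replicate 2 or 3, and 4 without weed-free replicate 1 or 2 or artificial low R:FR replicate 2. No gene of the heat shock list (14 tested) or cold list (11 tested) passed limma's test of the shift common to the treatments, with 3 of each list at an unadjusted p under 0.05, and 1 cold gene passed without artificial low R:FR replicate 3.

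Flavonoid and phenylpropanoid genes had a median difference of -0.42 over the 10 tested of 19, and 4 were lower. *CHS*, chalcone synthase at the entry to flavonoid synthesis, had 51.4, 5.12 and 8.43 TPM in replicate 3 of artificial low R:FR, biological low R:FR and weed-free, against 223 and 191, 12.02 and 10.7, and 23.3 and 21.8 TPM in replicates 1 and 2 of the same treatments. It differed by -1.44 ± 0.15 (SE, adjusted p = 0.00187), and replicate 3 was below both others in every treatment. *C4H* (-0.54 ± 0.11, adjusted p = 0.0276), *CHI* (-0.45 ± 0.11, adjusted p = 0.0394) and *PAL2* (-0.38 ± 0.09, adjusted p = 0.0386) were lower as well, and the 4 became 1 without weed-free replicate 1, 2 or 3 or artificial low R:FR replicate 1, 2 or 3, where *CHS* alone still passed. The 18 chlorophyll synthesis genes had a median difference of 0.17, against 0.12 over all genes. At an unadjusted p under 0.05 by limma 5 of them were higher and 5 lower. Only 3 of the 18 passed the threshold, all lower. They were *GUN4* (-0.72 ± 0.10, adjusted p = 0.00789), which encodes a protein that stimulates magnesium chelatase, *HEMA1* (-0.76 ± 0.15, adjusted p = 0.0238), the glutamyl-tRNA reductase that controls entry to the pathway, and *CAO* (-0.53 ± 0.08, adjusted p = 0.00816), which makes chlorophyll b. Of 34 photosystem and antenna genes 2 were lower, *LHCB2.1* (-0.66 ± 0.14, adjusted p = 0.0336) and *LHCB1.1* (-0.57 ± 0.13, adjusted p = 0.0391). Both have near-identical copies in the genome, so reads may have been split between copies. No gene of that list passed without weed-free replicate 1, 2 or 3, biological low R:FR replicate 2 or 3, or artificial low R:FR replicate 1 or 2, and 4 passed without biological low R:FR replicate 1 or artificial low R:FR replicate 3, where 5 chlorophyll synthesis genes passed.

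A low R:FR acts on genes of growth in shade. Phytochrome-interacting factors are transcription factors acted on by phytochrome, and several drive elongation in shade. A joint list of these factors and of other shade response genes had 19 genes tested. Of these, 3 were lower in replicate 3, *PIF5* (-0.43 ± 0.08, adjusted p = 0.0236), *PIF7* (-0.50 ± 0.11, adjusted p = 0.0352) and *PIF3* (-0.46 ± 0.10, adjusted p = 0.0358), and none was higher. *PIF1* (-0.16) and *PIF4* (0.04) did not pass. None of the 3 lower genes passed without weed-free replicate 1 or 2, biological low R:FR replicate 3, or artificial low R:FR replicate 1 or 2, and 1 passed without weed-free or artificial low R:FR replicate 3. A further pair of genes on the list was unequal between treatments, *PAR1* with differences of 1.36, 0.33 and 0.13 in artificial, biological and weed-free (interaction, adjusted p = 0.0365) and *IAA29* with 0.25, 0.07 and -0.90 (interaction, adjusted p = 0.0421). Of 15 auxin response genes *IAA3* was higher (0.50 ± 0.10, adjusted p = 0.0269) and *IAA17* lower (-0.59 ± 0.12, adjusted p = 0.0286).

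**Figure D5:**
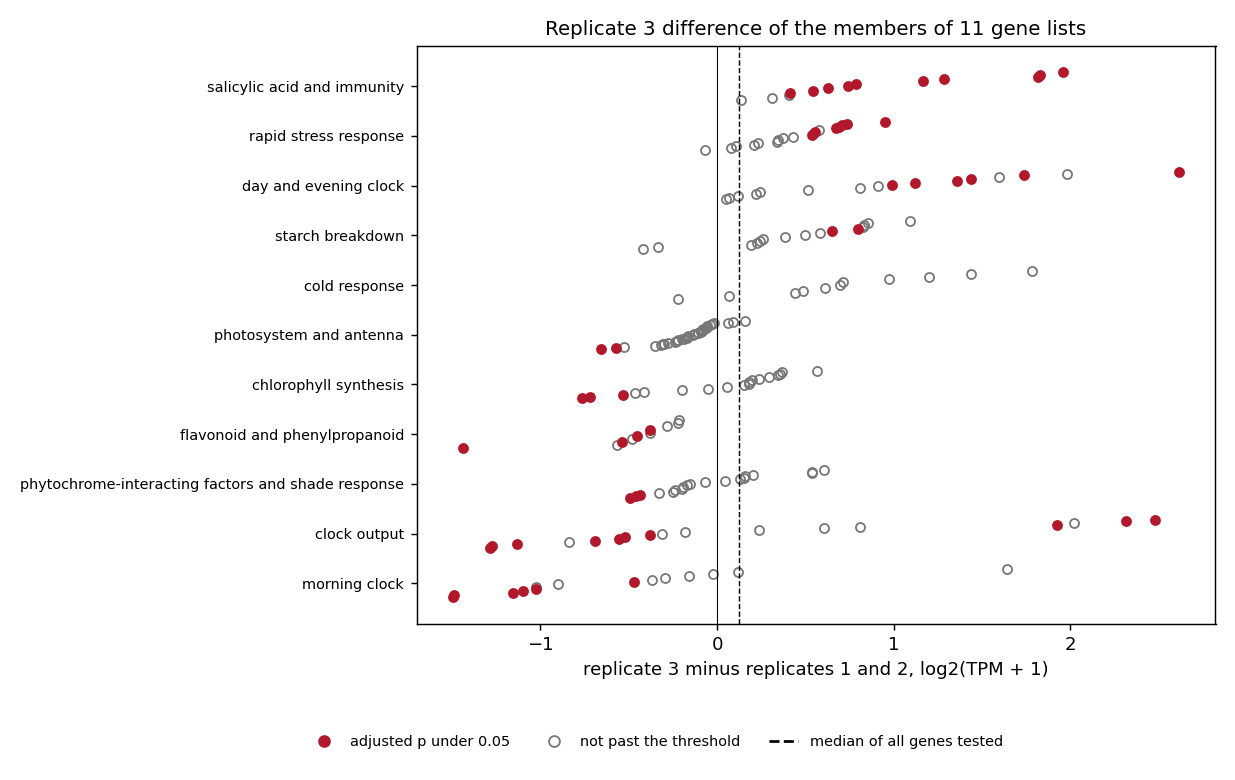
Difference of replicate 3 from replicates 1 and 2 in log2(TPM + 1) for each tested member of 11 gene lists. Filled red points passed the test at an adjusted p under 0.05, open grey points did not, and the dashed line is the median of all genes tested (0.12); morning clock genes reach down to -1.50 and day and evening clock genes up to 2.62.

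Starch is made by day and broken down at night in the leaf, and the genes of breakdown are under clock control. Of 15 such genes 2 were higher in replicate 3, *BAM3* (0.80 ± 0.12, adjusted p = 0.00816), the main β-amylase of the chloroplast, and *AMY3* (0.65 ± 0.16, adjusted p = 0.0486), an α-amylase. The count was 0 without weed-free replicate 3 and 1 without weed-free replicate 1 or 2, biological low R:FR replicate 1 or 2, or artificial low R:FR replicate 1 or 2. For 8 of the 15 the difference was unequal between treatments, among them *AMY3* with 1.28, 0.37 and 0.30 in artificial, biological and weed-free (interaction, adjusted p = 0.0422). *PWD*, a phosphoglucan dikinase that prepares the granule for attack, had 26.4, 47.3 and 47.7 TPM in replicate 3 of artificial low R:FR, biological low R:FR and weed-free, against 5.40 and 4.46, 34.7 and 32.9, and 32.4 and 30.5 TPM in replicates 1 and 2 of the same treatments. Its differences were 2.21, 0.47 and 0.59 in artificial, biological and weed-free (interaction, adjusted p = 0.00623), and *GWD1*, the dikinase that acts before it, had 1.96, 0.06 and 0.54 (interaction, adjusted p = 0.00415). Of 12 starch synthesis genes *PGM1* (0.61 ± 0.12, adjusted p = 0.027) and *SS4* (0.59 ± 0.14, adjusted p = 0.0393) were higher and *GBSS1*, the granule-bound synthase that makes amylose, was lower (-1.18 ± 0.24, adjusted p = 0.0286). The fall of *GBSS1* was unequal, at -2.08, -0.96 and -0.50 in artificial, biological and weed-free (interaction, adjusted p = 0.0405). Of the sugar starvation list *DRM1* (1.1 ± 0.15, adjusted p = 0.00626) and *BZIP11* (0.63 ± 0.10, adjusted p = 0.0114) were higher, 2 of 16 tested. The list did not rise as a whole, with a median difference of -0.01. At an unadjusted p under 0.05 by limma 3 of its genes were higher and 2 lower. *DRM2* (2.60), *DIN1* (-1.32) and *DIN6* (-0.41) were the members among these that did not pass the threshold.

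The replicate 3 shift was not of the same size everywhere. Over all genes tested it passed the interaction test in 362 (2.04%), and in 230 of these the largest shift was in artificial low R:FR. The share of all genes with their largest shift there was not counted, so the 230 cannot be read as a trait of these genes. The count of genes past the interaction test was 166 and 167 when artificial low R:FR replicate 1 or 2 was left out, 1493 and 3085 when biological low R:FR replicate 1 or 2 was, and 138 and 163 when weed-free replicate 1 or 2 was. Leaving out a replicate 3 removes the shift of its treatment, so the test then compares the remaining treatments only. The count was then 32 without artificial low R:FR replicate 3, 267 without that of biological low R:FR and 419 without that of weed-free. Of the 995 genes past the threshold in the common shift 20 were among the 362. Across genes, which are not independent replicates, the shifts of pairs of treatments had a Spearman correlation of 0.18 (artificial and biological), 0.29 (artificial and weed-free) and 0.24 (biological and weed-free).

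In artificial low R:FR, replicates 1 and 2 had very little RNA of several genes that replicate 3 held at a high level. *GRP7*, an RNA-binding protein gene that cycles under the clock, had 2473, 7027 and 6508 TPM in replicate 3 of artificial low R:FR, biological low R:FR and weed-free, against 97.6 and 90.9, 5258 and 4896, and 3491 and 3495 TPM in replicates 1 and 2 of the same treatments. Its differences were 4.70, 0.47 and 0.90 in artificial, biological and weed-free (interaction, adjusted p = 4.78e-05). *PRR5* had 43.9, 49.5 and 54.8 TPM in replicate 3 of artificial low R:FR, biological low R:FR and weed-free, against 0.583 and 0.452, 67.7 and 59.3, and 46.5 and 44.7 TPM in replicates 1 and 2 of the same treatments. Replicate 3 of artificial low R:FR was close to the other treatments, while replicates 1 and 2 were under 1 TPM, and the differences were 4.89, -0.35 and 0.26 (interaction, adjusted p = 3.15e-05). AT5G23240, a DNAJ heat shock domain gene, had differences of 4.61, 0.66 and 1.24 (interaction, adjusted p = 4.78e-05).

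Cold response genes showed the same form, with 10 of 11 past the interaction test and median differences of 2.01, -0.12 and 0.32 in artificial low R:FR, biological low R:FR and weed-free. *COR15B*, which encodes a chloroplast protein that protects membranes during freezing, had 499.8, 1200.0 and 1064 TPM in replicate 3 of artificial low R:FR, biological low R:FR and weed-free, against 31.98 and 24.2, 813 and 887, and 723 and 561 TPM in replicates 1 and 2 of the same treatments. *CBF2*, a transcription factor gene that raises the cold regulon and is itself gated by the clock, had 10.4, 7.20 and 5.86 TPM in replicate 3 of artificial low R:FR, biological low R:FR and weed-free, against 2.04 and 1.78, 23.2 and 20.8, and 12.9 and 15.5 TPM in replicates 1 and 2 of the same treatments. It was higher in replicate 3 of artificial low R:FR and lower in replicate 3 of both other treatments (1.97, -1.49 and -1.14; interaction, adjusted p = 0.000701). *GOLS3*, a galactinol synthase gene, went in the same directions, with differences of 3.24, -1.16 and -0.62 (interaction, adjusted p = 0.000103).

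The remaining lists gave few calls. *NIA2*, a nitrate reductase gene, was lower (-0.48 ± 0.11, adjusted p = 0.0387), as were *APR2* of sulfate assimilation (-0.51 ± 0.11, adjusted p = 0.0292) and *RD26* of the abscisic acid response (-0.71 ± 0.15, adjusted p = 0.0317), each the 1 call of its list (8, 18 and 9 genes tested). No iron gene of 14 passed, with 6 at an unadjusted p under 0.05. Markers of dividing cells (6 tested), guard cells and epidermis (4), vascular tissue (6) and of flowers and roots (1 tested of 9) gave no call by limma in either direction, with 1, 1, 0 and 0 at an unadjusted p under 0.05. Their summed levels were 154 to 165, 30.1 to 43.6, 55.5 to 67.5 and 8.56 to 10.9 TPM in replicate 3, against 127 to 154, 29.9 to 36.2, 57.3 to 75.4 and 7.36 to 11.4 TPM in replicates 1 and 2, and the floral genes *AP1* and *LFY* were listed at 0 in every library. The 6 leaf markers, which include RuBisCO small subunit and activase, summed to 29058 to 48835 TPM in replicate 3 and 22857 to 61145 TPM in replicates 1 and 2. Of these 6 *FBA1*, a chloroplast fructose-bisphosphate aldolase gene, was lower (-0.56 ± 0.13, adjusted p = 0.0368), and no other passed; 2 were lower at an unadjusted p under 0.05. In whole leaves, fewer cells of a type and less RNA per cell cannot be told apart.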

How the data were processed

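Leaf RNA of 9 libraries (TruSeq kit, NovaSeq) was sequenced for the authors, whose notes name Bowtie 2 2.4.3, HTSeq 0.13.5 and DESeq2 1.30.1. The deposited tables give, for each library, TPM and FPKM (per gene length and library total) and the coverage of a gene (mean read depth per base) for 37363 genes. The program that made them and its strand setting are not given in the sources used here. The authors also deposited normalized counts, a signal of whole reads divided by a size factor per library, from which 1683076 to 5025090 reads per library were recovered (100% of values whole at a tolerance of 1e-06). The paper lists many times more mapped reads for each library, and the reason for the gap is not given in the sources used here. The noise ratios and the tests on recovered reads rest on this smaller set. Their 3 tables of fold changes and p-values were not used.

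Replicate numbers came from the labels. Replicate 3 was compared with replicates 1 and 2 on log2(TPM + 1) with limma 3.58.1 (trended, robust variance, treatment as a term, two-sided, Benjamini-Hochberg over 17784 genes with a TPM of at least 1 in at least 3 libraries, threshold 0.05). The log2(TPM + 1) scale understates the change of low genes. The interaction of replicate 3 with treatment was tested by a moderated F test, and replicate 2 minus replicate 1 in a fit with the number as 3 levels. The fit was tested on simulated data. edgeR 4.0.16 and DESeq2 1.42.0 were run on the recovered reads for totals of calls. Genes named were the 12 largest rises and falls (mean of at least 10 TPM, replicate 3 outside in all treatments), up to 6 called members of each list and those against its direction, all clock genes, and 6 of the interaction; *GRP7*, *FKF1*, *COR15B*, *CBF2*, *GOLS3*, *PWD*, *GWD1*, *PAD4*, *PAR1*, *IAA29* and the family members were added after their values were seen. The samples compared, the 26 lists and the families were chosen with earlier results of these data known, in which several clock genes had been given library by library, so the clock pattern is not independent support. Names and positions are from RefSeq's annotation of TAIR10.1, the build of the files. A further promoter stretch is not reported here.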

Additional observations from a re-analysis of the deposited data

Results flagged for a closer look

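The replicate 3 difference was unequal between the 3 treatments in 362 genes by the interaction test, and 6 of them with a mean of at least 10 TPM had the smallest adjusted p. For *PRR5* (adjusted p = 3.15e-05) and AT5G23240, a DNAJ domain gene (adjusted p = 4.78e-05), replicate 3 of artificial low R:FR was far above its replicates 1 and 2, and in AT5G23240 the replicate 3 libraries of all treatments were the higher ones. The other 4 turned on libraries listed at exactly 0. AT1G06650, an oxygenase gene (adjusted p = 5.7e-07), had 0, 41.6 and 52.8 TPM in replicate 3 of artificial low R:FR, biological low R:FR and weed-free, against 45.8 and 46.4, 0 and 0, and 44.9 and 48.02 TPM in replicates 1 and 2 of the same treatments. AT5G61660, a glycine-rich protein gene (adjusted p = 2.72e-05), was listed at 0 in weed-free replicate 3 and at 15.2 to 47.2 TPM in the other libraries. AT1G03210 (adjusted p = 3.15e-05) was listed at 0 in artificial low R:FR replicates 1 and 2 and weed-free replicate 3. AT2G29290 (adjusted p = 4.02e-05) was listed at 0 in biological low R:FR replicate 3 alone. An exact 0 in such tables can be a failed estimate, and 12 of the 362 genes, against 2 of the 995 past the threshold in the common shift, had a library at 0 and another at 10 TPM or more. Such a library raises the variance of the common shift and can make the treatments unequal, so this contrast follows in part from the tests. The share among all genes tested is not given here, so the counts have no background.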

How the results depend on the processing

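Of the 78 genes past the threshold that were followed, 20 kept direction and call in all 20 alternatives, among them *CCA1*, *LNK3*, *LNK4*, *LUX*, *COL9*, *COR27*, *BBX25*, *CAT2*, *SIG5*, *CHS*, *GER3* and *PR5*. None of the 78 changed direction. Genes named only as members of a family were not followed. Against 721 genes higher and 274 lower, the replicate block of 3 levels gave 224 and 133 (354 of its 357 calls shared with those 995), no filter 270 and 118, median-of-ratios scaling 254 and 484, the fits without all weed-free libraries 30 and 52 and without all artificial low R:FR libraries 249 and 119. On the table of normalized counts, with 7132 genes tested, limma gave 44 and 86, edgeR 62 and 95 and DESeq2 69 and 101 (2627 genes without an adjusted p). Leaving out a library gave 138 to 1639 higher and 101 to 329 lower, 32 to 3085 genes for the interaction and 0 to 4 for replicate 2 against replicate 1, where a pseudocount of 0.1 gave 2. The causes were not tested. Deviations from the treatment mean correlated across genes between treatments at 0.17 to 0.31 for replicate 3, -0.03 to 0.22 for replicate 1 and 0.09 to 0.21 for replicate 2. Pairs of a replicate 1 with a replicate 2 gave 0.04 to 0.19. Deviations within a treatment sum to 0, so a shared replicate 3 deviation alone raises the values among replicates 1 and 2. Whether numbers 1 and 2 pair the samples cannot be told from these values. With 3 libraries against 6, and 2 libraries per treatment on 1 side, small differences of low genes could not be resolved.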

Other observations

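Further families, examined after their values were seen, held further genes that were higher or lower in replicate 3. Of the *WRKY* family, transcription factors that bind W-boxes, 40 of 72 were tested and 8 were higher in replicate 3, none lower, with a median difference of 0.18 against 0.12 for all genes. *WRKY51*, a repressor of jasmonate signalling, had 6.52, 1.51 and 5.37 TPM in replicate 3 of artificial low R:FR, biological low R:FR and weed-free, against 2.88 and 3.61, 0.532 and 0.587, and 0.290 and 0.799 TPM in replicates 1 and 2 of the same treatments. It differed by 1.19 ± 0.24 (SE, adjusted p = 0.0271). *WRKY54* (0.88 ± 0.14, adjusted p = 0.0138), *WRKY46* (0.68 ± 0.13, adjusted p = 0.0206) and *WRKY58* (0.59 ± 0.13, adjusted p = 0.0317) were higher beside *WRKY38*, *WRKY53*, *WRKY40* and *WRKY70*. Of the cysteine-rich receptor-like kinases 28 of 45 were tested and 3 were higher, *CRK6* (0.98 ± 0.23, adjusted p = 0.0445), *CRK7* (0.77 ± 0.16, adjusted p = 0.0268) and *ARCK1* (0.93 ± 0.17, adjusted p = 0.0185). *CRK6* and *CRK7* are neighbouring related genes, so their reads may have been shared.

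Glutathione S-transferase genes of the tau and phi classes (24 of 42 tested) moved both ways. *GSTF6*, a phi class gene known as a marker of stress and salicylic acid, had 124, 34.8 and 63.2 TPM in replicate 3 of artificial low R:FR, biological low R:FR and weed-free, against 50.3 and 54.6, 23.3 and 24.1, and 15.2 and 17.8 TPM in replicates 1 and 2 of the same treatments. It differed by 1.21 ± 0.20 (SE, adjusted p = 0.0157). *GSTF7*, its close copy, differed by 1.07 ± 0.20 (SE, adjusted p = 0.022), and *GSTF10* by 0.50 ± 0.10 (SE, adjusted p = 0.0269), while *ERD9* (-1.46) and *GSTU16* (-0.49 ± 0.11, adjusted p = 0.034) were lower. The 5 senescence genes tested had a median difference of -0.17. *SAG13* was higher at 0.88 ± 0.27 but did not pass (SE, adjusted p = 0.0913). The 2 that passed were lower, both NAC factors that promote leaf senescence. *NAP* had 3.41, 5.30 and 1.58 TPM in replicate 3 of artificial low R:FR, biological low R:FR and weed-free, against 19.3 and 18.1, 14.3 and 15.3, and 6.79 and 5.43 TPM in replicates 1 and 2 of the same treatments. It differed by -1.65 ± 0.15 (SE, adjusted p = 0.000735), and *ORE1* by -0.90 ± 0.21 (SE, adjusted p = 0.0396). The senescence protease gene *SAG12* was listed at 0 in every library.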
